A study of Mus musculus with 6 samples.

Results

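Malat1, Neat1, Meg3, Miat, Snhg11, Rmst, Sox2ot and Gm26917 are long transcripts that are followed here for the share of RNA they make up in each cell class of the mouse frontal lobe. They were taken by gene symbol from the feature list common to all 6 count matrices, in which each symbol matched 1 gene, so 8 of 32285 genes are described. Malat1, Meg3 and Snhg11 each held at least 0.609% of all UMIs in every library, whereas the other 5 held 0.00586% to 0.0422%, and Snhg11 is annotated as protein-coding in GENCODE M21, so the usual name, abundant nuclear noncoding RNAs, fits some of them better than others. The tissue came from 6 Tg-SwDI mice, whose transgene encodes human amyloid precursor protein with the Swedish, Dutch and Iowa mutations and whose brain vessels accumulate amyloid. In 3 mice the microglial receptor gene Trem2 was knocked out (SwDI/TKO), and in the other 3 it was wild type (SwDI/TWT). All 6 mice carry the transgene, so no group without it was compared, and the sources used here give no age, sex or promoter of the transgene. Each library held the nuclei of 1 mouse and counted unique molecular identifiers (UMIs), 1 per captured RNA molecule, near transcript 3′ ends.

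Long noncoding RNAs act as RNA, not through a protein, and many stay at or near the chromatin that made them. Malat1 gathers in nuclear speckles, the stores of splicing factors, and Neat1 is the scaffold of paraspeckles, nuclear bodies that hold RNA-binding proteins such as NONO and SFPQ. Meg3 is made from the maternal copy of an imprinted gene cluster, Snhg11 is the host of small nucleolar RNAs, and Miat (also called Gomafu) is a neuronal RNA that binds splicing factors. Rmst and Sox2ot are linked to SOX2, the transcription factor of neural stem cells and glia, Rmst as its binding partner and Sox2ot as the transcript that overlaps the Sox2 gene.

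Malat1 and Neat1 share an unusual 3′ end, which is shown because it sets them apart from RNAs that end in a poly(A) tail added after a poly(A) signal: U-rich and A-rich elements fold into a triple helix that protects the RNA. The capitals mark the 3 stretches of at least 10 bases that the last 100 bases of Neat1-201, the longer Neat1 isoform, share with the last 400 bases of Malat1-201, in DNA letters along the transcript (GENCODE M21, GRCm38, which is mm10). They are the U-rich TTTCTTTTCCTGA and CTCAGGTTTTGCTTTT and the A-rich AAAAAGCAAAA. Both stretches lie on the minus strand, at chr19:5795978-5796073 for Malat1-201 and chr19:5824708-5824807 for Neat1-201. Of 141767 annotated transcripts, searched along the sense strand, 2 (0.00141%) held all 3 in this order, with both U-rich stretches starting within 100 bases before the A-rich one, and these were the 2 transcripts shown. The second U-rich and the A-rich stretch were 25 bases apart in Malat1 and 32 bases apart in Neat1, where the A-rich stretch ends the annotated transcript.
Malat1-201: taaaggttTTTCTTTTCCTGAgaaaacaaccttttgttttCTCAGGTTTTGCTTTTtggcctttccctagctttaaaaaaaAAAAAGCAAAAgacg
Neat1-201: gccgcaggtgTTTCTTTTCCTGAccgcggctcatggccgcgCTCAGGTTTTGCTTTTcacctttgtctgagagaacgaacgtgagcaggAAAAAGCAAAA

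The last 60 bases of 3 further transcripts are shown because 3′ counting depends on them, with the poly(A) signal AATAAA in capitals, a hexamer present in that window in 27.2% of 141515 transcripts. The short Neat1 isoform (chr19:5842307-5842366, minus strand), Meg3 (chr12:109571667-109571726, plus strand) and Snhg11 (chr2:158386086-158386145, plus strand) hold it. The end of Gm26917 (chr17:39846282-39846341, plus strand) is shown beside them because the transcript is 69.1% G and C, against 42.5% for Malat1; it holds no AATAAA, nor do the same windows of Sox2ot-215, Rmst-207 and Miat-205.
Neat1-202: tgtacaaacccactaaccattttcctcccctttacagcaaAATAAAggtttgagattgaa
Meg3-209: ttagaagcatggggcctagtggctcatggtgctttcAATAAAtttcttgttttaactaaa
Snhg11-201: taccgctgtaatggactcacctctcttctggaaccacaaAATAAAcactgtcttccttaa
Gm26917-202: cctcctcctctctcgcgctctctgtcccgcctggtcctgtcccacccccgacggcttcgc

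Miat carries repeats of ACTAAC, the branch-point-like motif bound by the splicing factor SF1. The stretch below, at chr5:112217308-112217460 on the minus strand of transcript Miat-205, holds 4 of the 11 copies, in capitals, found on the sense strand of this 9163-base transcript. Of 975 transcripts at least as long, 12 (1.23%) had as many, and their median was 1.
Miat-205: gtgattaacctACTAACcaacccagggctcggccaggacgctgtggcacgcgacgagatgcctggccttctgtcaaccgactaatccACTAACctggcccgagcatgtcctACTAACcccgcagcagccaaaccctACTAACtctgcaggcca

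Of 39752 barcodes, 33008 nuclei remained after filters and removal of doublets, 4427 to 7460 in SwDI/TKO libraries and 5166 to 5823 in SwDI/TWT libraries. Pairs of libraries shared 8 to 18 barcode sequences, and 200 sequences were found in more than 1 library. Trem2 was counted in microglia of every library, at 229.8, 663 and 420.3 CPM (UMIs of the gene per 1000000 UMIs of the class) in SwDI/TKO and at 1558, 1352 and 813 CPM in SwDI/TWT, lower in every SwDI/TKO library. The sources used here do not say which part of Trem2 is deleted, and 3′ counts outside it would check nothing. Of the nuclei, 25111 (76.1%) fell into 7 classes named from marker genes, and the other 7897 lay in smaller or unnamed clusters. The 3 neuron classes are excitatory-like, inhibitory-like and striatal projection neuron-like, the 4 glial ones are precursor-like (oligodendrocyte precursors), oligodendrocyte-like, astrocyte-like and microglia-like, and the suffix is dropped below.

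SwDI/TKO replicate 1 stood apart from the other 5 libraries and is set apart throughout. Per the file headers it was counted with Cell Ranger 7.0.0 and the others with 6.1.2, and its median was 5309.5 UMIs per nucleus, against 1444.5 to 2465 elsewhere. Different clusters held most of a class there: striatal projection neurons were 98.4% in cluster 16, which held few nuclei of other libraries, and at least 99.58% in cluster 0 elsewhere. Likewise cluster 9 held 69.0% of its excitatory neurons and cluster 12 held 79.1% of its oligodendrocytes, whereas clusters 3 and 1 held most of these classes in the other 5 libraries. The largest cluster of inhibitory neurons was cluster 2 in 4 libraries and cluster 10 in SwDI/TKO replicate 1 and SwDI/TWT replicate 2. The barcodes over the 5% limit on mitochondrial UMIs made up 4.62%, 9.39% and 29.96% of the SwDI/TKO libraries and 15.5%, 17.8% and 6.31% of the SwDI/TWT libraries.

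Malat1 took the largest share of UMIs of the 8 RNAs in every class and library. It was detected in every nucleus of the 7 classes even after thinning each nucleus to 500 UMIs. Its share was lowest in microglia in each of the 6 libraries, at 6.74%, 11.6% and 10.99% of microglial UMIs in SwDI/TKO and 14.6%, 14.9% and 17.4% in SwDI/TWT. Astrocytes held 14.2%, 27.3% and 23.5% in SwDI/TKO and 31.0%, 29.95% and 37.5% in SwDI/TWT, which was 2.01- to 2.35-fold the microglial share of the same library. Oligodendrocytes held 13.5%, 25.4% and 21.5% in SwDI/TKO and 27.7%, 27.0% and 33.9% in SwDI/TWT. Astrocytes thus stood above oligodendrocytes in 6 of 6 libraries, by a log2 difference of 0.13 ± 0.04 (SD, n = 6). Striatal projection neurons exceeded oligodendrocytes in 4 of 6 libraries, and these classes could not be ordered. Inhibitory neurons held the lowest share of the 3 neuron classes, at 1.15- to 1.64-fold the microglial share of the same library.

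Malat1 made up a smaller share of UMIs in every SwDI/TKO library than in every SwDI/TWT library, over all nuclei and in all 7 classes. Over all nuclei it held 9.07%, 23.0% and 18.0% of UMIs in SwDI/TKO and 26.3%, 26.0% and 29.5% in SwDI/TWT. The means were 16.7% ± 7.05 in SwDI/TKO and 27.3% ± 1.96 in SwDI/TWT (SD, n = 3 each; exact two-sided permutation p = 0.1, the smallest that 3 against 3 allows). SwDI/TKO replicate 1 was the lowest library, and replicates 2 and 3 lay below all SwDI/TWT libraries without it. Malat1 was 1 of the 8 RNAs lower without overlap over all nuclei, where 2.78% of 16425 genes were so.

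Within classes the separation of Malat1 was narrowest in oligodendrocyte precursors, at 9.91%, 20.8% and 16.8% of UMIs in SwDI/TKO and 23.6%, 21.5% and 28.3% in SwDI/TWT. Excitatory neurons held 9.46%, 23.7% and 17.5% in SwDI/TKO and 28.3%, 25.7% and 29.3% in SwDI/TWT. Striatal projection neurons, the output neurons of the striatum, held 9.85%, 27.6% and 20.2% in SwDI/TKO and 29.4%, 31.0% and 35.6% in SwDI/TWT. In each of these classes SwDI/TKO replicate 1 was the lowest library, and replicate 2 came nearest to the SwDI/TWT range. The edgeR log2 fold change of Malat1, SwDI/TKO over SwDI/TWT, was negative in every class, from -0.82 in striatal projection neurons to -0.60 in oligodendrocytes and their precursors. Without SwDI/TKO replicate 1 it lay between -0.59 and -0.47. In microglia it was -0.69 (SE 0.30, edgeR adjusted p = 0.775) and -0.53 (SE 0.17, edgeR adjusted p = 0.515) without that library. No class passed the threshold, an adjusted p under 0.05 over all genes tested. These p-values set the genotype difference against the spread between libraries of single mice. With 6 libraries that spread includes SwDI/TKO replicate 1, which differed in software version and depth.

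**Figure D1:**
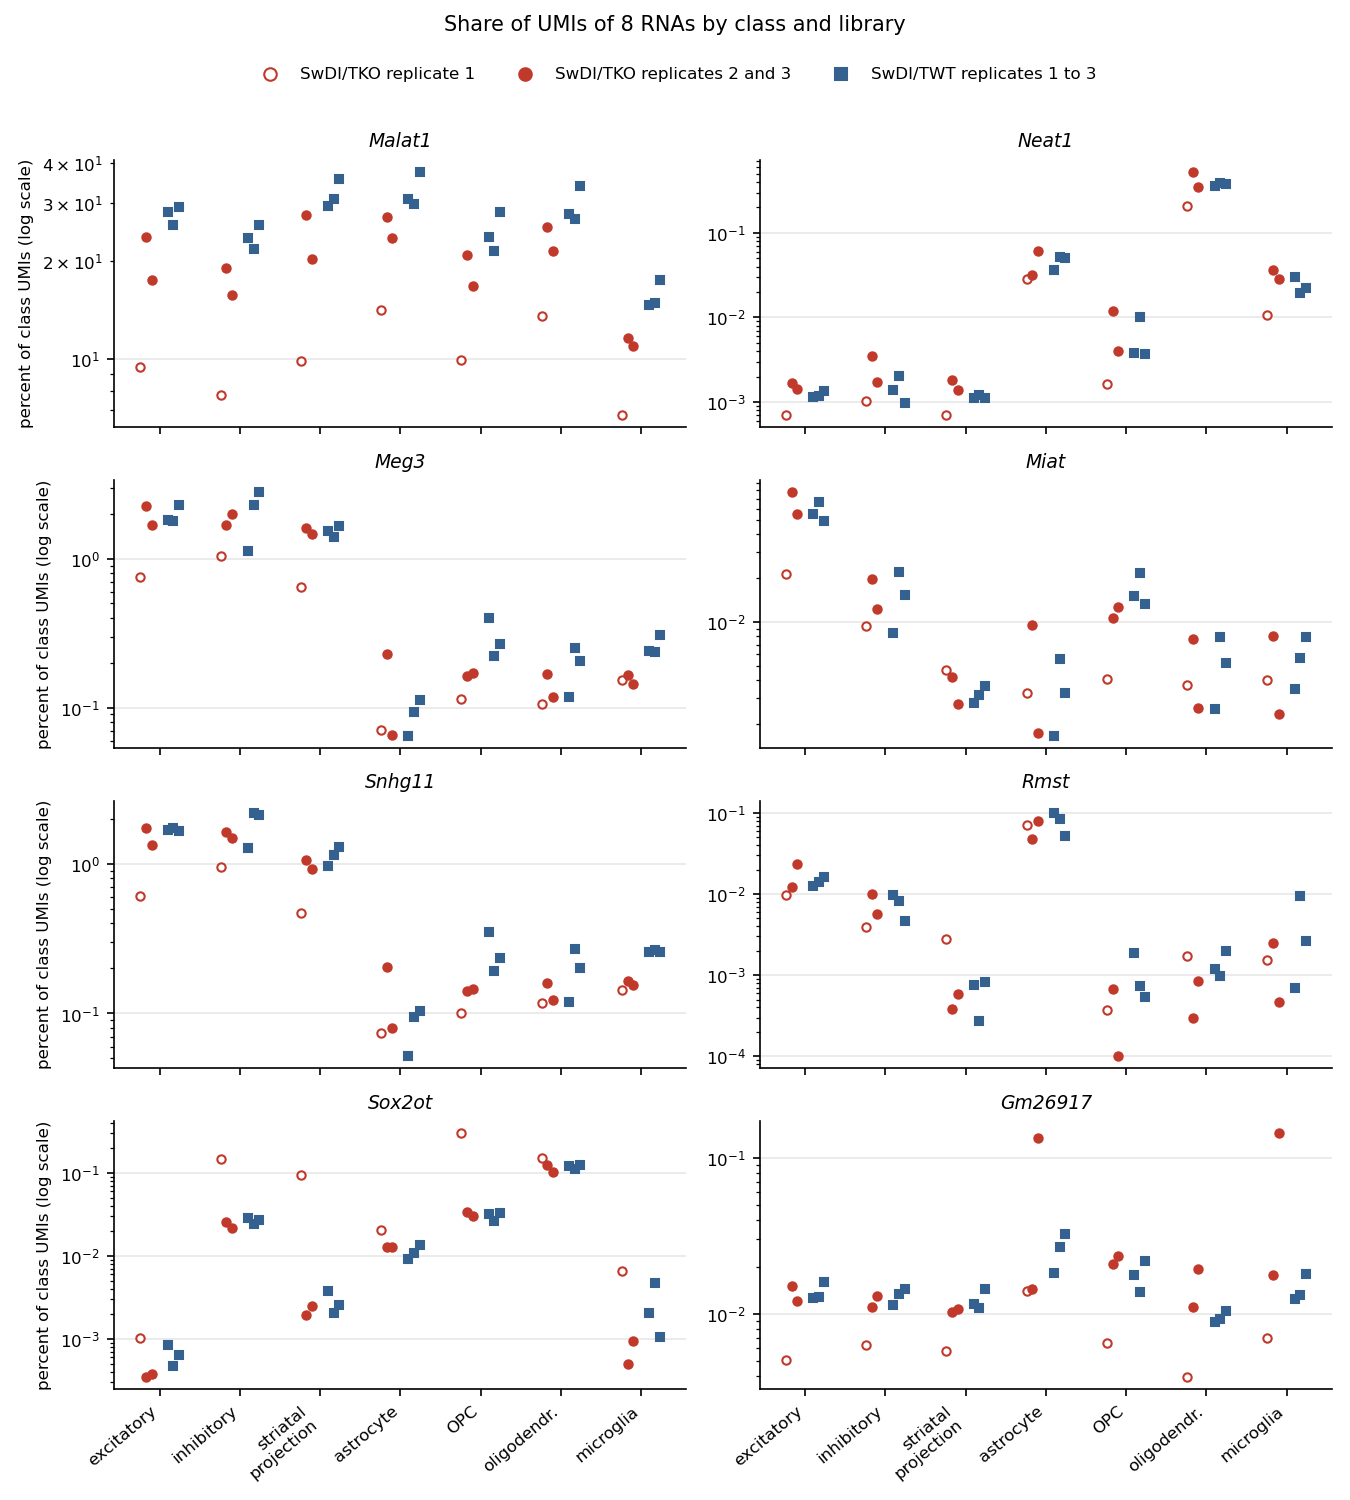
Percent of UMIs (log scale) for each of the 8 RNAs in 7 classes, 1 point per library: SwDI/TKO as red circles (replicate 1 open) left of SwDI/TWT as blue squares; OPC is the oligodendrocyte precursor, and a share of 0 is drawn at 0.0001. Malat1 is at least 6.74% everywhere, Meg3 and Snhg11 are highest in the 3 neuron classes, Neat1 and Sox2ot in oligodendrocytes and Rmst in astrocytes, except that Sox2ot of SwDI/TKO replicate 1 is highest in OPC.

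The number of Malat1 molecules counted per nucleus behaved differently from its share over all nuclei, whereas in microglia both separated the genotypes. Over all nuclei there were 582, 513 and 492 Malat1 UMIs per nucleus in SwDI/TKO and 514, 599 and 705 in SwDI/TWT. SwDI/TKO replicate 1, with the lowest share, was inside the SwDI/TWT range, while replicates 2 and 3 were just below it. In microglia there were 111.56, 92.3 and 83.8 UMIs per nucleus in SwDI/TKO and 114, 111.66 and 131 in SwDI/TWT, without overlap but with a very narrow gap. Among single nuclei the Malat1 share was broad: the interquartile range was 6.28% to 12.6%, 15.2% to 27.2% and 12.4% to 21.9% of UMIs in SwDI/TKO replicates 1 to 3. In SwDI/TWT replicates 1 to 3 it was 18.996% to 29.9%, 17.7% to 31.0% and 20.5% to 35.0%. The range of SwDI/TKO replicate 1 lay wholly below all SwDI/TWT ranges, whereas those of SwDI/TKO replicates 2 and 3 overlapped all of them. The library medians, 9.15%, 21.2% and 17.2% in SwDI/TKO and 24.6%, 24.5% and 27.8% in SwDI/TWT, did not overlap.

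Malat1 also differed between kept nuclei and barcodes over the mitochondrial limit. Over the limit it took 8.28%, 16.4% and 11.99% of UMIs in SwDI/TKO and 17.3%, 17.2% and 21.2% in SwDI/TWT, against the 9.07% to 29.5% given above for kept nuclei. It was lower over the limit in 6 of 6 libraries, by a mean log2 difference of -0.48 ± 0.18 (SD, n = 6; exact two-sided sign-flip p = 0.031, adjusted p = 0.042 over the 8 RNAs). Meg3 (-0.53), Miat (-0.58), Snhg11 (-0.45) and Gm26917 (-0.41) were lower in 6 of 6 libraries at the same p, and Sox2ot was higher in 6 of 6, by 0.63. Neat1 was higher in 5 of 6 libraries, by 1.13 ± 1.08 (exact p = 0.062, adjusted p = 0.062), and Rmst lay at -0.38 with the same adjusted p. These shares are percents of all UMIs, mitochondrial ones included. More mitochondrial UMIs over the limit therefore lower the share of every other RNA by themselves. With 6 libraries the exact p cannot fall below 0.031, and after adjustment an RNA at that floor passes only if enough other RNAs reach it too. Barcodes over the limit were neither clustered nor screened for doublets, so their mix of classes is not known. The part of class mix in these differences was not tested. The part of mitochondrial content in the genotype difference of Malat1 was not tested; within kept nuclei its share correlated weakly with the mitochondrial share, at Spearman coefficients of -0.13 to -0.24 across nuclei of a library.

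Neat1 was highest in oligodendrocytes, the myelin-forming cells, in 6 of 6 libraries. Oligodendrocytes held 0.206%, 0.529% and 0.352% of their UMIs as Neat1 in SwDI/TKO and 0.360%, 0.394% and 0.384% in SwDI/TWT. Astrocytes held 0.0283%, 0.0319% and 0.0614% in SwDI/TKO and 0.0362%, 0.0523% and 0.0503% in SwDI/TWT. Oligodendrocytes exceeded astrocytes in 6 of 6 libraries by 5.71- to 16.4-fold, microglia by 11.7- to 19.5-fold and excitatory neurons by 244- to 331-fold. After thinning to 500 UMIs, 60.6% to 87.6% of oligodendrocytes had a Neat1 UMI, against 0.483% to 1.004% of excitatory neurons, whose median depth was 2682 UMIs or more against 777 or more in oligodendrocytes. Unthinned, 3.29% to 6.16% of excitatory neurons had one. The SwDI/TKO libraries enclosed all SwDI/TWT libraries in oligodendrocytes, with replicate 1 lowest and replicate 2 highest, and the edgeR log2 fold change was -0.11 (adjusted p = 0.962). Over all nuclei Neat1 had 0.0120%, 0.0390% and 0.0212% of UMIs in SwDI/TKO and 0.0247%, 0.0239% and 0.0214% in SwDI/TWT (edgeR log2 fold change 0.015, SE 0.35, adjusted p = 0.994).

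Meg3 and Snhg11 had nearly the same distribution over classes and libraries, high in neurons and low in glia. Excitatory neurons held 0.754%, 2.25% and 1.68% of UMIs as Meg3 in SwDI/TKO and 1.81%, 1.78% and 2.31% in SwDI/TWT. Inhibitory neurons, which release GABA, held 1.05%, 1.69% and 2.002% in SwDI/TKO and 1.12%, 2.29% and 2.80% in SwDI/TWT. These neuron classes could not be ordered by Meg3, at a log2 difference of 0.045 ± 0.47 with inhibitory neurons higher in 4 of 6 libraries, whereas striatal projection neurons exceeded oligodendrocyte precursors by 3.85- to 9.90-fold.

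Snhg11 took 0.614%, 1.73% and 1.34% of excitatory UMIs in SwDI/TKO and 1.69%, 1.74% and 1.65% in SwDI/TWT. Across 7 classes and 6 libraries there were 0.820 to 1.59 Meg3 UMIs per Snhg11 UMI, with no correction for length, while the Meg3 share itself ranged from 0.0647% to 2.80%. The ratio was nearly constant in oligodendrocyte precursors, at 1.13 to 1.17, and lay at 1.22 to 1.59 in striatal projection neurons, where it was the highest of the 7 classes in 5 of 6 libraries, SwDI/TWT replicate 3 being the exception. In neurons the genotypes overlapped for both RNAs in all 3 classes.

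**Figure D2:**
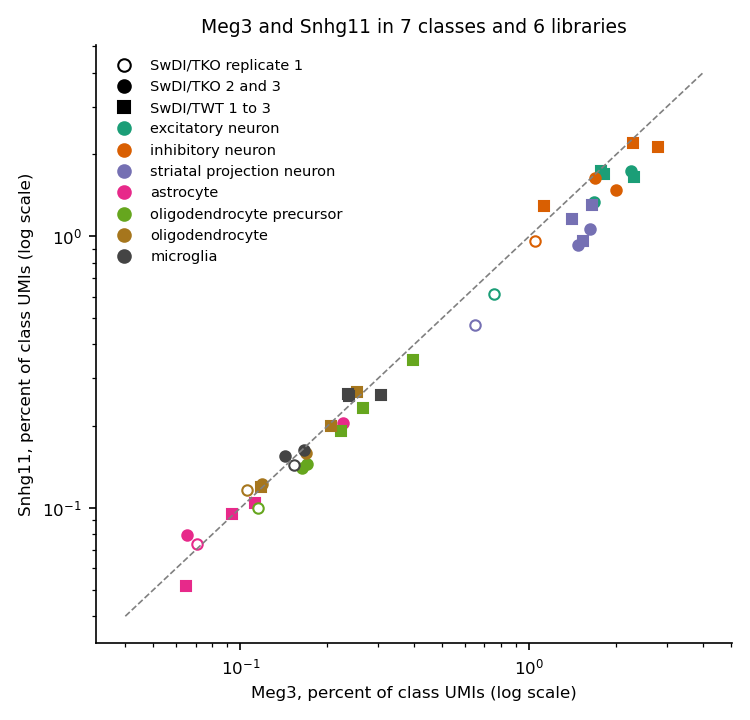
Percent of UMIs of Meg3 (x axis) and Snhg11 (y axis), both on log scales, with 1 point per class (colour) and library (SwDI/TKO circles, replicate 1 open, SwDI/TWT squares); the dashed line marks equal shares. The 42 points lie along the line, with Meg3 per Snhg11 UMI between 0.820 and 1.59, and the 3 neuron classes form the upper group.

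In microglia and in oligodendrocyte precursors both neuronal RNAs took a lower share of UMIs in every SwDI/TKO library than in every SwDI/TWT library. Microglia held 0.153%, 0.166% and 0.143% of UMIs as Meg3 in SwDI/TKO and 0.239%, 0.237% and 0.306% in SwDI/TWT, and 0.145%, 0.164% and 0.156% as Snhg11 in SwDI/TKO and 0.259%, 0.264% and 0.260% in SwDI/TWT. The shares did not overlap, and SwDI/TKO replicate 1 lay close to the other SwDI/TKO libraries. Counted as UMIs per nucleus the groups overlapped, with SwDI/TKO replicate 1 the highest library for both RNAs. Meg3 had 2.53, 1.32 and 1.09 UMIs per nucleus in SwDI/TKO and 1.86, 1.77 and 2.30 in SwDI/TWT. For Snhg11 these were 2.39, 1.30 and 1.19 in SwDI/TKO and 2.02, 1.98 and 1.95 in SwDI/TWT. The edgeR log2 fold changes were -0.74 for Meg3 (SE 0.25) and -0.74 for Snhg11 (SE 0.24), with an edgeR adjusted p of 0.775 for both. With doublets kept Meg3 lay at -0.46. With Malat1, 3 of 8 RNAs were lower without overlap in microglia, where 4.91% of 3995 genes were so.

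Oligodendrocyte precursors, the dividing cells that give rise to oligodendrocytes, held 0.115%, 0.163% and 0.1704% of UMIs as Meg3 in SwDI/TKO and 0.397%, 0.223% and 0.267% in SwDI/TWT. Their Snhg11 share was 0.1003%, 0.140% and 0.145% in SwDI/TKO and 0.350%, 0.193% and 0.234% in SwDI/TWT. Every SwDI/TKO library lay below every SwDI/TWT library for both shares, and SwDI/TWT replicate 1 was the highest. Per nucleus the groups overlapped, at 3.78, 2.12 and 2.49 Meg3 UMIs in SwDI/TKO and 5.52, 2.27 and 3.20 in SwDI/TWT. Snhg11 had 3.30, 1.83 and 2.12 in SwDI/TKO and 4.87, 1.96 and 2.82 in SwDI/TWT. The log2 fold changes were -0.93 for Meg3 and -0.95 for Snhg11 (edgeR adjusted p = 0.704 for both), and -0.37 and -0.43 with a mitochondrial limit of 1%. Meg3, Snhg11, Miat and Malat1 made 4 of 8 RNAs lower without overlap in this class, where 4.14% of 3505 genes were so. The make-up of the class was uneven: cluster 13 held 76.5% of it in SwDI/TKO replicate 2 and 94.7% to 99.4% in the other libraries. The part of this in the differences was not tested. Without SwDI/TKO replicate 1 the log2 fold changes of Meg3 and Snhg11 were -0.81 and -0.76 in microglia and -0.91 and -0.95 in the precursors.

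Neuronal RNA outside neurons was measured beside these glial values. Meg3 in microglia stood at 20.6%, 9.45% and 9.40% of its level over all nuclei in SwDI/TKO and at 17.3%, 13.8% and 14.6% in SwDI/TWT. The summed share of the 10 excitatory neuron markers in microglia was 0.0469%, 0.0296% and 0.04997% in SwDI/TKO and 0.0462%, 0.0357% and 0.0227% in SwDI/TWT, so for the markers the genotypes overlapped. In the precursors it was 0.0439%, 0.0462% and 0.0370% in SwDI/TKO and 0.0543%, 0.0436% and 0.0308% in SwDI/TWT. On the scale used for Meg3, the markers in microglia stood at 37.4%, 23.1% and 33.9% of their level over all nuclei in SwDI/TKO. In SwDI/TWT they stood at 37.1%, 25.4% and 19.2%. In astrocytes they stood at 95.2% to 161%, so the summed markers were not low in every glial class. Of the 10 markers 10, 9 and 9 were detected in microglia of SwDI/TKO and 8, 8 and 7 in SwDI/TWT, 6 to 10 were detected in the precursors of a library, and none was at 0 in all libraries of either class. The part of free neuronal RNA in the Meg3 and Snhg11 differences was not tested.

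Miat was highest in excitatory neurons, which held 0.0213%, 0.0776% and 0.0550% of UMIs as Miat in SwDI/TKO and 0.0550%, 0.0666% and 0.0496% in SwDI/TWT. Inhibitory neurons held 0.00935%, 0.0196% and 0.0122% in SwDI/TKO and 0.00837%, 0.0219% and 0.0152% in SwDI/TWT. Excitatory neurons exceeded inhibitory neurons in 6 of 6 libraries by 2.27- to 6.55-fold and striatal projection neurons by 4.51- to 21.1-fold, the smallest of these in SwDI/TKO replicate 1. In neither neuron class did the genotypes separate. In oligodendrocyte precursors Miat was lower in every SwDI/TKO library, at 0.00409%, 0.0107% and 0.0126% against 0.0152%, 0.0218% and 0.0133% in SwDI/TWT (edgeR log2 fold change -0.90, adjusted p = 0.704). These shares rest on 16 to 33 UMIs per library, and the log2 fold change was -0.57 without SwDI/TKO replicate 1.

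Among the classes compared, Rmst had its highest share of UMIs in astrocytes and a lower share in excitatory neurons. Astrocytes held 0.0712%, 0.0478% and 0.0792% of UMIs as Rmst in SwDI/TKO and 0.101%, 0.0838% and 0.0515% in SwDI/TWT. Excitatory neurons ranged from 0.00984% to 0.0234%, which astrocytes exceeded by 3.21- to 7.99-fold in 6 of 6 libraries. Most Rmst UMIs nevertheless lay outside astrocytes. Of the Rmst UMIs over all nuclei, astrocytes held 723 of 7589, 60 of 839 and 138 of 1308 in SwDI/TKO. In SwDI/TWT these were 303 of 1157, 226 of 2321 and 127 of 1685. Excitatory neurons held more in every library, at 1714, 493 and 430 in SwDI/TKO and 396, 562 and 480 in SwDI/TWT. The remainder lay in other classes and in the smaller or unnamed clusters. After thinning to 500 UMIs 16.3% to 38.3% of astrocytes had a Rmst UMI, against 0% to 0.877% of oligodendrocyte precursors, and SwDI/TKO replicate 3 had no Rmst UMI in that class at all. The genotypes overlapped in every class. Over all nuclei its edgeR log2 fold change lay at -0.12 (SE 0.43, adjusted p = 0.957) with 6 libraries and at -0.70 (SE 0.24, adjusted p = 0.999) without SwDI/TKO replicate 1, where the SwDI/TKO shares of 0.00819% and 0.0108% lay below the SwDI/TWT shares of 0.0114%, 0.0182% and 0.0121%.

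Sox2ot was highest in oligodendrocytes in 5 libraries and stood far higher in other classes of SwDI/TKO replicate 1. In oligodendrocytes it took 0.151%, 0.125% and 0.102% of UMIs in SwDI/TKO and 0.122%, 0.111% and 0.122% in SwDI/TWT, with overlap of the genotypes. In oligodendrocyte precursors the SwDI/TKO shares were 0.298%, 0.0334% and 0.0302%, and the SwDI/TWT shares were 0.0322%, 0.0262% and 0.0329%. SwDI/TKO replicate 1 thus held 9.62 times the mean of the other 5 libraries, which lay close together in both genotypes. In striatal projection neurons it held 36.8 times that mean, at 0.0943% against 0.00195% and 0.00249% in the other SwDI/TKO libraries and 0.00373%, 0.00207% and 0.00256% in SwDI/TWT. The log2 fold changes of 2.34 in precursors (edgeR adjusted p = 0.704) and 3.83 in striatal projection neurons (edgeR adjusted p = 0.753) became -0.032 and -0.46 without that library.

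The 8 RNAs differ in how much intron they hold, and SwDI/TKO replicate 1 differed from the other libraries gene by gene. Sox2ot spans 566756 intron bases and Rmst 86711, whereas Meg3 holds 12637, Miat 6875, Snhg11 1987, and Malat1, Neat1 and Gm26917 none. Over all nuclei the share in SwDI/TKO replicate 1 against the mean of the other 5 was -1.44 on the log2 scale for Malat1, -1.12 for Neat1, -1.19 for Meg3, -1.20 for Snhg11 and -1.04 for Miat. For Rmst it was 0.38 over all nuclei and differed in sign between classes. It was 2.30 in striatal projection neurons, on 99 UMIs against 71 in the other 5 libraries together, and 0.69 in oligodendrocytes, but -0.68 in excitatory neurons, -0.96 in inhibitory neurons and -0.028 in astrocytes. Sox2ot overlaps genes on both strands, 6 of them on the opposite strand, and the sources used here state neither the strand setting of the counting nor whether intronic reads were counted in any library. The cause of the difference was not tested.

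**Figure D3:**
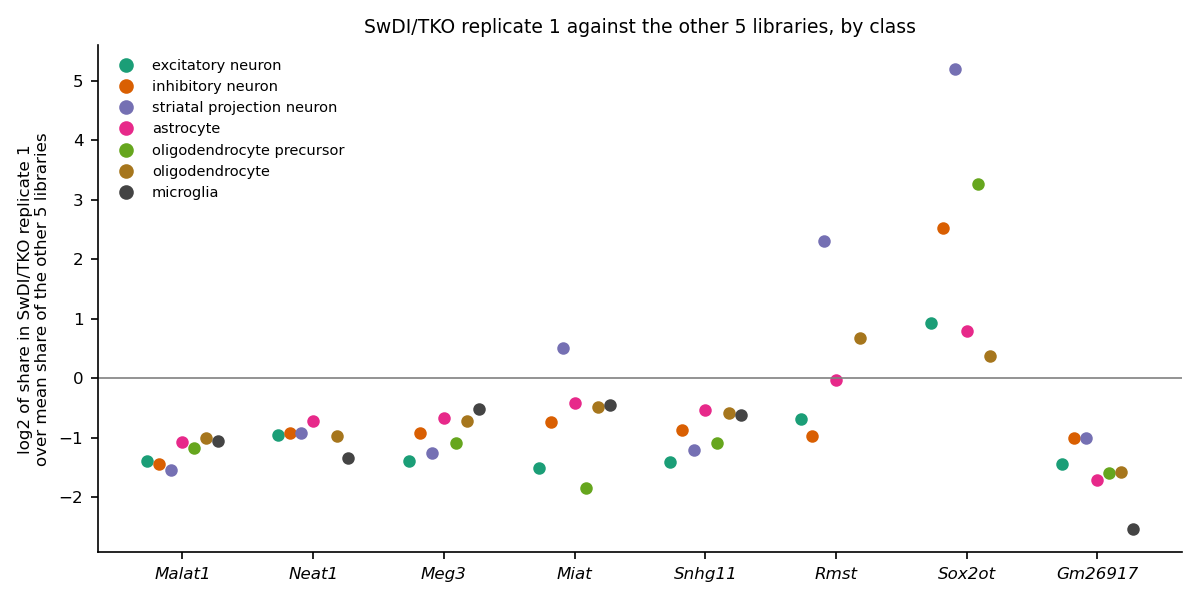
Log2 of the share of UMIs in SwDI/TKO replicate 1 over the mean share of the other 5 libraries (y axis), for each RNA (x axis) and class (colour), where both sides held at least 20 UMIs. Malat1 lies between -1.55 and -1.003 in all 7 classes, and Sox2ot lies above 0, up to 5.20 in striatal projection neurons.

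Gm26917 is a 3329-base RNA gene with no annotated intron at chr17:39843013-39846341 on the plus strand, 11 bases from the annotated ribosomal RNA gene CT010467.1, and no function is given for it in the annotation. Among the 7 classes it was high in the microglia and astrocytes of a single library, SwDI/TKO replicate 3. Microglia held 0.00703%, 0.0176% and 0.143% of UMIs as Gm26917 in SwDI/TKO and 0.0124%, 0.0131% and 0.0179% in SwDI/TWT. Astrocytes held 0.0139%, 0.0143% and 0.134% in SwDI/TKO and 0.0182%, 0.0267% and 0.0324% in SwDI/TWT. The other 2 SwDI/TKO libraries lay within or below the SwDI/TWT range in both classes.

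The Gm26917 excess of SwDI/TKO replicate 3 differed by class. It was 10.5-fold over the mean of the other 5 libraries in microglia and 6.36-fold in astrocytes, 2.22-fold in oligodendrocytes, and 0.979-fold in excitatory and 1.01-fold in striatal projection neurons. In microglia 52.3% of 281 nuclei of that library had a Gm26917 UMI, against 8.60% to 12.4% elsewhere, and 39 nuclei held 3 or more UMIs. Border macrophages of that library, a small class, held 1169.8 CPM against 58.1 to 366 elsewhere, and an unnamed cluster of 35 nuclei with fibroblast and astrocyte markers held 3176 CPM. Its 12 fibroblast nuclei held 1276 CPM against 73.6 to 884 elsewhere. Its 16 mural nuclei held 474 CPM against 0 to 107, and its 5 endothelial nuclei 922 CPM against 0 to 158. Gm42418, another noncoding RNA, was 2.17-fold in microglia, 2.10-fold in astrocytes and 2.58-fold in excitatory neurons of that library over the mean of the others, and 1.49- to 2.75-fold over all named classes. The same library had the most barcodes over the mitochondrial limit, and the part of that in the Gm26917 values was not tested.

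**Figure D4:**
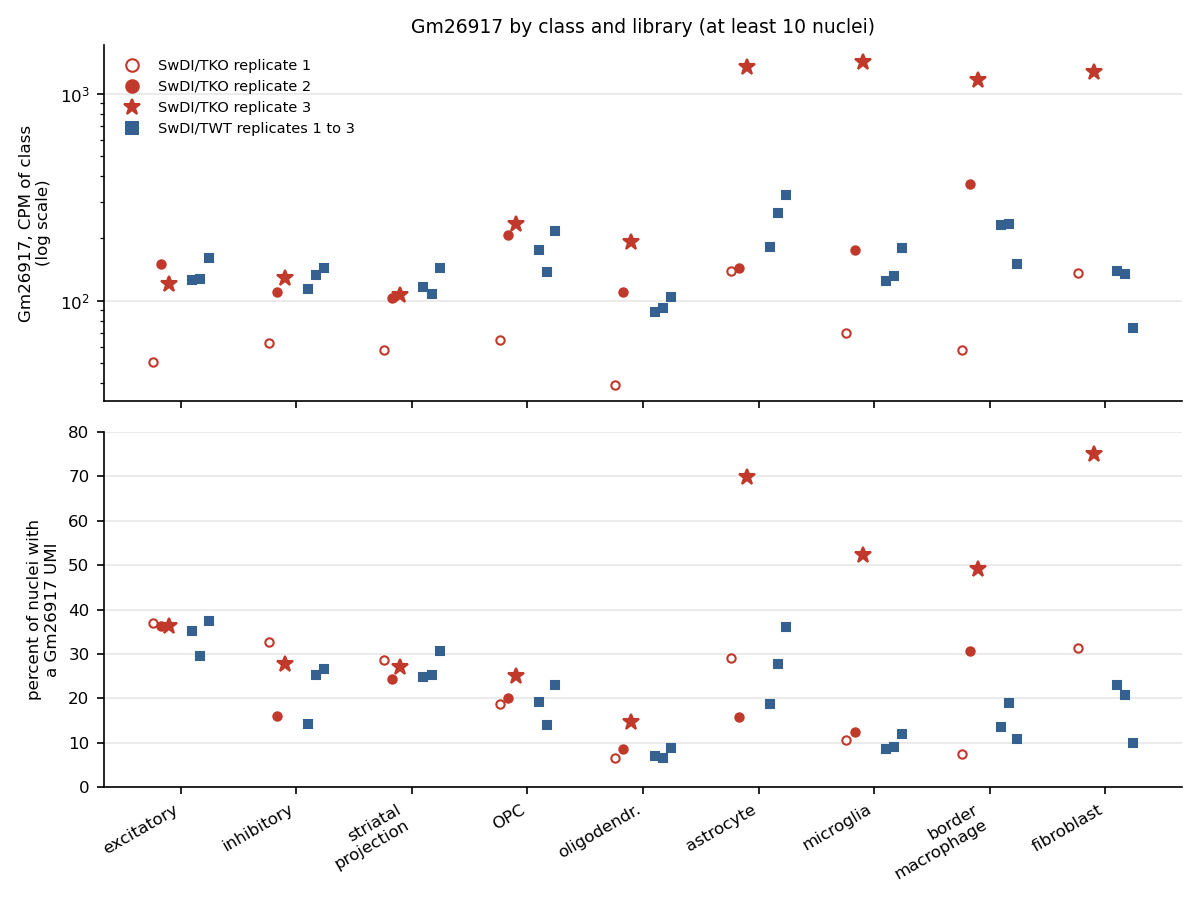
Gm26917 in CPM of the class (top, log scale) and percent of nuclei with a Gm26917 UMI (bottom) by class, for libraries with at least 10 nuclei of a class: SwDI/TKO in red (replicate 1 open, replicate 3 a star) left of SwDI/TWT in blue. SwDI/TKO replicate 3 reaches 1429 CPM and 52.3% of nuclei in microglia, and lies among the other libraries in the 3 neuron classes.

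The edgeR log2 fold change of Gm26917 in microglia was 1.86 (SE 0.84, adjusted p = 0.775) with 6 libraries. Without SwDI/TKO replicate 1 it was 2.39 (SE 0.44, edgeR adjusted p = 0.0226), 1 of 2 genes called of 4522 (0.0442%), and without SwDI/TKO replicate 3 it was -0.28. In astrocytes it was 0.90 (edgeR adjusted p = 0.729) with 6 libraries and -0.84 without SwDI/TKO replicate 3. The direction therefore rested on that library. In striatal projection neurons Gm26917 was lower in SwDI/TKO without overlap, at 0.00577%, 0.0103% and 0.0107% against 0.0116%, 0.0108% and 0.0144% in SwDI/TWT, with a gap between the groups smaller than the spread within either.

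None of the 8 RNAs was called between genotypes with 6 libraries, over all nuclei or in any class (edgeR, adjusted p under 0.05). The fit called 0.0% of 16425 genes over all nuclei, where 620 had an unadjusted p under 0.05, and DESeq2 called 0. In the classes edgeR called 0.0% of 3505 to 12798 genes, with 235 to 649 at an unadjusted p under 0.05, and DESeq2 called 2 genes in astrocytes. Without SwDI/TKO replicate 1 edgeR called 0.191% of 3672 genes in precursors, 0.0122% of 8203 in oligodendrocytes and 0.0442% of 4522 in microglia, and of the 8 RNAs Gm26917 in microglia alone. Over all nuclei, with 6 libraries, 2 RNAs had a log2 fold change above 0 and 6 below, and their median was -0.18, against 0.05 over all genes tested. In microglia 6 of the 8 RNAs passed the filter on low counts, and 4 of these had an unadjusted p under 0.05, where 6.21% of 3995 genes had. In oligodendrocyte precursors 6 passed the filter and 4 had an unadjusted p under 0.05, where 6.70% of 3505 genes had.

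**Figure D5:**
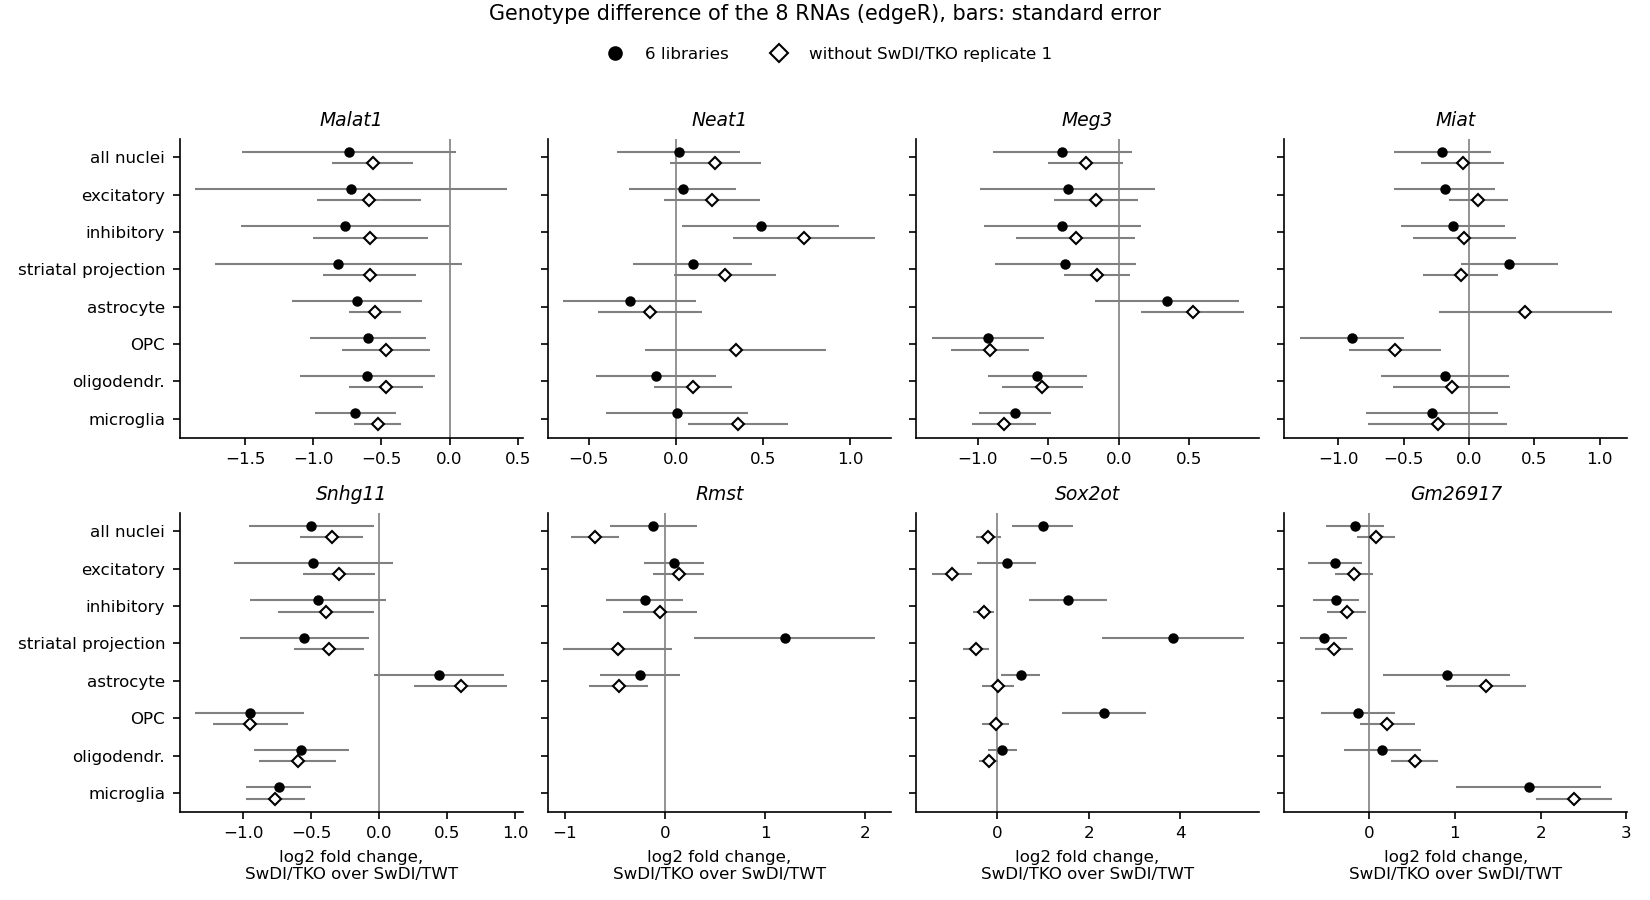
EdgeR log2 fold change of each RNA, SwDI/TKO over SwDI/TWT (x axis), over all nuclei and in 7 classes (y axis), with 6 libraries (filled circles) and without SwDI/TKO replicate 1 (open diamonds); bars are standard errors, and RNAs under the filter on low counts are left out. Malat1 is negative in every row, and Sox2ot moves from 3.83 to -0.46 in striatal projection neurons when the replicate is left out.

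Where the shares of these RNAs did not overlap between genotypes, SwDI/TKO was the lower group. Counting classes and all nuclei separately, 1 RNA was lower without overlap in excitatory neurons (3.0% of 12798 genes), 1 in inhibitory neurons (2.54% of 11872), 2 in striatal projection neurons (2.46% of 12095), 1 in astrocytes (3.39% of 4309) and 1 in oligodendrocytes (2.77% of 7803). No RNA of the 8 was higher without overlap, where 9.01% of 16425 genes were over all nuclei. In the classes 8.03% of genes were so in excitatory, 6.84% in inhibitory and 9.28% in striatal projection neurons, 7.38% in astrocytes, 5.08% in precursors, 7.1% in oligodendrocytes and 5.73% in microglia. With 8 RNAs, none higher is near these percentages of genes and shows no direction particular to these RNAs. Malat1 was the RNA lower without overlap in all 4 classes with a single one. It was also the one over all nuclei, which include those classes. Together the 8 RNAs took 10.5%, 26.2% and 20.8% of all UMIs in SwDI/TKO and 29.0%, 29.4% and 33.3% in SwDI/TWT. Because shares sum to 100%, a lower Malat1 share and higher shares of other genes cannot be told apart.

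The order of classes was tested for each RNA between neighbouring classes. None of 48 neighbour pairs passed after adjustment over all of them (smallest adjusted p = 0.083, exact sign-flip test over 6 libraries). The sign-flip p cannot fall below 0.031, however large a difference is. After adjustment a pair at that floor passes only if enough other pairs reach it too. This count therefore cannot decide the order of neighbouring classes. Over all 168 pairs of classes, a family chosen after seeing the data, 115 passed the same sign-flip test at an adjusted p of 0.046. They ranged from 11 of 21 pairs for Gm26917 to 18 of 21 for Sox2ot. All 115 had the same direction in 6 of 6 libraries, which gives the smallest exact p whatever the size of the difference. Microglia, for example, exceeded excitatory neurons in Gm26917 by 1.01- to 11.9-fold. For Sox2ot oligodendrocytes exceeded precursors in 5 of 6 libraries, SwDI/TKO replicate 1 being the exception. For Gm26917 astrocytes exceeded microglia in 4 of 6 libraries, by 0.49 ± 0.55 on the log2 scale.

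The genes most like each RNA were taken from 35 class sums of the 5 libraries without SwDI/TKO replicate 1, by Pearson correlation of log2(CPM + 10) among 10788 genes. The points share libraries and class composition, so the coefficients are descriptions. Snhg11 and Meg3 were each other's nearest gene (r = 0.993), followed in both by the ubiquitin ligase Ube3a and by Rian, another RNA of the imprinted cluster that holds Meg3. Neat1 was nearest to Ppfibp2 (0.955), Lap3 (0.951) and Stxbp3 (0.940). Rmst was nearest to Ddo (0.940), Camk2g (0.900) and Gm37107 (0.879), and Miat to Slit1 (0.889), Pde4d (0.882) and Ndst3 (0.873). Sox2ot was nearest to Sema6a (0.895) and 2900052L18Rik (0.886), and then to Sox2 (0.878), the gene it overlaps. Malat1 was nearest to Stx19 (0.827), Gphn (0.715) and Klf9 (0.707), and Gm26917 to Lman1 (0.679), Asb8 (0.676) and Ggnbp1 (0.675). Among the 8 RNAs themselves Neat1 ran opposite to Meg3 (-0.80), and Malat1 reached no more than 0.25 in size with any other.

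Other nuclear or noncoding RNAs and the protein partners of these 8 were compared over all nuclei. Of 20 listed RNAs 19 were tested, 7 were higher and 12 lower in SwDI/TKO, none was called, and their median was -0.11 on the log2 scale, against 0.05 for all genes. By smallest p these were Tsix (-0.68), Pvt1 (1.25), Gas5 (-0.47), Snhg1 (-0.42), Xist (-0.48) and Snhg14 (0.34), with edgeR adjusted p-values of 0.699 to 0.801. Of 22 genes listed as partners or neighbours 21 were tested, 9 were higher and 12 lower, none was called, and the median was -0.27, or -0.051 without SwDI/TKO replicate 1. Here Crybb1 lay at 1.004, Nell2 at 1.39, Sox2 at -0.59 and the paraspeckle protein gene Nono at -0.35 (edgeR adjusted p = 0.699 to 0.701). Several of these values depended on SwDI/TKO replicate 1. Pvt1 and Nell2 stood at 105 and 381 CPM there against 23.6 to 29.3 and 68.8 to 144 elsewhere, and lay at -0.16 and 0.087 without it. Gas5 lay at -0.18, Snhg1 at -0.11, Xist at -0.21, Snhg14 at 0.17 and Sox2 at -0.31 without that library.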

How the data were processed

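The deposited files are 6 gene-by-barcode matrices of raw UMI counts, filtered by the authors' software to called nuclei; per the file headers they came from Cell Ranger 7.0.0 (SwDI/TKO replicate 1) and 6.1.2 (the other 5), and per the labels' protocols from Chromium Single Cell 3′ version 3.1 chemistry and mm10. Total counts were 51317961 in SwDI/TKO replicate 1 and 11493087 to 17835287 in the others, and class sums 106519 to 17423476; intervals are not given, so precision is the spread between libraries. The members, lists and tests were chosen with earlier results of these data known.

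The 34281 barcodes with 200 genes or more and up to 5% mitochondrial UMIs were kept, and Scrublet (scanpy 1.11.5, expected rate 0.06) removed 1273 doublets. Nuclei were clustered without the 8 RNAs on 2000 variable genes with 15 neighbours (Leiden, leidenalg 0.10.2, resolution 1.0, 27 clusters). A cluster was named when at least 3 markers of a class had a log2 fold of 0.8 over other nuclei and an own marker stood among its top 50 genes; classes with 20 nuclei in every library were kept. Rebuilt names may differ from the authors' own.

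Counts were summed per class and library, and shares are percent of that sum. Genotypes were compared with edgeR 4.0.16 (glmQLFit, glmQLFTest, TMM, filterByExpr) in R 4.3.3, two-sided, with Benjamini-Hochberg adjustment over all genes of a set and a threshold of 0.05; the mouse was the replicate. DESeq2 1.42.0 was an alternative. Shares were compared by exact permutation over 20 assignments of libraries, and classes and the mitochondrial limit by exact sign flips within libraries, after adding 0.5 UMIs. The edgeR steps were tested on simulated data. All 8 RNAs are named, with up to 6 and 4 genes of smallest p from the lists of other nuclear RNAs and of partners and neighbours, and 3 most alike genes each with a mean of 10 CPM or more. Gm42418 and CT010467.1 were named after their values or positions were seen. Gene IDs matched GENCODE M21 for 32158 of 32285 (99.6%), and sequences come from that annotation's genome, GRCm38.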

Additional observations from a re-analysis of the deposited data

How the results depend on the processing

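Malat1 kept its lower level in SwDI/TKO over all nuclei and in all 7 classes under every normalization and filter, the 1% mitochondrial limit and every left-out library, and over all nuclei with no mitochondrial limit, with edgeR log2 fold changes of -1.16 to -0.43 over the left-out libraries. Over all 58 pairs of an RNA and a set of nuclei, 704 of 768 alternative log2 fold changes kept direction and side of the threshold, 61 changed sign and 3 passed the threshold, 2 of these without the filter on low counts. Without that filter edgeR called 495 genes in astrocytes, 434 in oligodendrocyte precursors, 421 in oligodendrocytes and 260 in microglia, nearly all higher in SwDI/TKO, against 0 with it. DESeq2 called 2 genes in astrocytes. Chosen after seeing the data, DESeq2 without SwDI/TKO replicate 1 called 8 genes over all nuclei, 2 in excitatory neurons, 1 in inhibitory neurons, 1 in striatal projection neurons, 1 in precursors and 2 in oligodendrocytes, and gave Sox2ot log2 fold changes of -0.19 over all nuclei, -0.31 in inhibitory neurons, -0.48 in striatal projection neurons and -0.029 in precursors, Gm26917 of 0.085 over all nuclei and Neat1 of 0.11 in oligodendrocytes. Leaving out 1 library at a time, edgeR called 0 to 7 genes in precursors, 0 to 1 in oligodendrocytes and 0 to 2 in microglia, the highest numbers without SwDI/TKO replicate 1. The log2 fold changes then ranged over all nuclei from -0.20 to 1.40 for Sox2ot, -0.65 to 0.0047 for Miat, -0.46 to 0.081 for Gm26917, -0.70 to 0.15 for Rmst and -0.42 to 0.23 for Neat1. In single classes they ranged from -0.30 to 1.97 (inhibitory neurons), -0.46 to 4.42 (striatal projection neurons) and -0.032 to 2.82 (precursors) for Sox2ot, -0.84 to 1.36 (astrocytes) and -0.28 to 2.39 (microglia) for Gm26917, and -0.45 to 0.10 for Neat1 in oligodendrocytes. The difference in percent of UMIs over all nuclei, SwDI/TKO minus SwDI/TWT, ranged from -0.0067 to 0.0068 for Neat1, -0.011 to 0.0017 for Miat, -0.00046 to 0.015 for Sox2ot and -0.0043 to 0.0026 for Gm26917, and from 1 to 4 RNAs were lower without overlap. Neat1 lay at -0.0021 with Malat1 left out of the denominator, at -0.0025 with all 8 RNAs left out, and at a log2 fold change of -0.076 with no mitochondrial limit, and Rmst at 0.024 with a limit of 1%. Inhibitory over excitatory neurons lay at -0.041 to 0.19 for Meg3 with a library left out, at -0.018 without Malat1 and at -0.017 without the 8 RNAs in the denominator, and at -0.12 as a mean over nuclei, where Snhg11 lay at -0.023. With a mitochondrial limit of 1%, 0 of the 8 RNAs passed the adjusted sign-flip test across the limit, against 6 at 5%. Rmst lay at 0.13 with the limit of 1%. An RNA at the smallest exact p of 0.031 passes after adjustment only if enough other RNAs reach it. The count at 1% therefore does not show that no RNA differed. With 5 libraries the smallest exact p is 0.0625, so none could pass. The causes of these changes were not tested. No paired analysis was possible because the replicate numbers were given in accession order and pair no mice.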
